A study of Saccharomyces cerevisiae with 8 samples.

Results

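The genes described here encode the core of mRNA decapping and 5' decay in budding yeast. They are 10 of the 6002 nuclear protein-coding genes: DCP1, DCP2, EDC1, EDC2, EDC3, DHH1, PAT1, LSM1, XRN1 and RAT1. They were chosen by name for these roles, and each was read over its 5' region. That region begins 400 nt ahead of the start codon, or less where a coding region on the same strand lay closer, and ends 50 nt inside the coding region. The rest of the coding region is called the gene body. All 10 had tags in every enzyme-treated library, and all 10 passed the filter on low counts in every comparison of 5' regions.

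The study compared enzymes that open the mRNA cap for mapping of transcription start sites. Every library came from BY4741, a haploid laboratory strain of mating type a with the genotype his3delta1 leu2delta0 ura3delta0 met15delta0, grown to mid-log phase at 30 °C in rich glucose medium with no drug or stress. Total RNA was treated with phosphatase so that uncapped ends could not be ligated, and was then split into aliquots for Tobacco Acid Pyrophosphatase (TAP), for the acid pyrophosphatase sold as Cap-Clip, for Decapping Pyrophosphohydrolase, or for no enzyme. An adapter was ligated to the opened ends, polyadenylated RNA was selected, and the first base of each read was counted as a tag. Each of the 4 groups held 2 libraries, replicates 1 and 2.

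Decay of most yeast mRNAs begins with shortening of the poly(A) tail, after which the Lsm1-7 ring with Pat1 and the helicase Dhh1 recruit and activate the decapping enzyme. Dcp2 cuts the cap, Dcp1 is its essential partner, and Edc1, Edc2 and Edc3 stimulate the reaction. The exposed 5' monophosphate end is then degraded by the exonuclease Xrn1 in the cytoplasm, whereas its relative Rat1 works in the nucleus. The enzymes added in the tube carry out on purified RNA a cut of the cap like that of Dcp2 in the cell.

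The libraries held between 80721 and 10739034 tags, and the 2 without enzyme stood apart from the rest and from each other. No-enzyme replicate 1, with 736236 tags, held most tags of the members in gene bodies, and no-enzyme replicate 2 was the smallest library, in which a count of 0 still allows 37.2 CPM. CPM are tags per 1000000 tags of the library. The tags followed the strain: in their 5' regions LEU2 and MET17 had 0 tags and URA3 had 1 over all 8 libraries, and the a-factor gene MFA1 stood at 3087 ± 347 CPM (SD, n = 6 enzyme-treated libraries) beside 0.571 ± 0.362 CPM for the alpha-factor gene MF(ALPHA)1. The design describes 2 biological replicates that were each divided into the 4 aliquots, the sample labels do not tie replicate numbers to them, and p-values measure the spread between such libraries.

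Each member has a single coding exon. The sequences around the strongest start site of each gene, set by mean CPM over the 6 enzyme-treated libraries, are shown to make clear where the tags begin. They are RefSeq R64 (sacCer3) sequence on the strand of the gene, 5' to 3', with 10 bases on each side. The capital is the first base of the tag, and the distance is counted back from the A of the start codon.
DCP1 (YOL149W), 19 nt upstream, chr15:44909-44929, + strand: gcaacacatcAcaagaaaagc
DCP2 (YNL118C), 63 nt upstream, chr14:405617-405637, - strand: ctcacttagtAtcaattgtct
EDC1 (YGL222C), 60 nt upstream, chr7:81236-81256, - strand: cgaagtactcAgcaaagcgta
EDC2 (YER035W), 75 nt upstream, chr5:222554-222574, + strand: taacgtcactAcatacaaagt
EDC3 (YEL015W), 33 nt upstream, chr5:126586-126606, + strand: ccatgctctcAagacaataca
DHH1 (YDL160C), 284 nt upstream, chr4:172204-172224, - strand: aaagacaatcAtcaataaaag
PAT1 (YCR077C), 42 nt upstream, chr3:252660-252680, - strand: tgaaggaagcAaaggttttaa
LSM1 (YJL124C), 166 nt upstream, chr10:187800-187820, - strand: ctgtatgaccAagggctgatt
XRN1 (YGL173C), 332 nt upstream, chr7:180435-180455, - strand: tgaaaacgtcAaactaagtac
RAT1 (YOR048C), 32 nt upstream, chr15:421672-421692, - strand: caggttcttcAaggaagtgct

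All 10 strongest sites begin with A after a C or a T, the pyrimidine-purine step at which 84.9% of tags in the enzyme-treated libraries lie. The sequences of 4 further sites are shown because each had few or no tags with at least 1 of the enzymes and is described with the single positions.
DHH1, 197 nt upstream, chr4:172117-172137, - strand: ttaagaccacAagcttaatat
LSM1, 125 nt upstream, chr10:187759-187779, - strand: gtaacacagtTtagttatatt
PAT1, 37 nt upstream, chr3:252655-252675, - strand: gaagcaaaggTtttaaccgga
EDC2, 65 nt upstream, chr5:222564-222584, + strand: acatacaaagTtatacactaa
The DHH1 site begins with A, and the other 3 begin with T followed by a second T.

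The level of the 10 genes at their 5' regions was the first question. LSM1 was the highest, at 218.3 ± 20.5 CPM (SD, n = 6 enzyme-treated libraries), and DCP2 the lowest, at 27.2 ± 13.1 CPM, beside a median of 27.0 CPM over all genes. Between them came DCP1 at 131.3 ± 27.6, PAT1 at 91.7 ± 34.8, DHH1 at 89.3 ± 36.9, RAT1 at 75.7 ± 40.2, EDC3 at 75.2 ± 31.7, EDC1 at 66.4 ± 12.3, EDC2 at 57.8 ± 13.5 and XRN1 at 43.8 ± 19.3 CPM. From PAT1 down to DCP2, each neighbour in this order differed from the next by less than the larger of their SDs. LSM1 differed from DCP1, and DCP1 from PAT1, by more than either SD. These SDs span 3 enzymes, so they hold differences between enzymes as well as between replicates. Within libraries, DHH1 lay above RAT1 and XRN1 above DCP2 in each of the 6. The other neighbours from PAT1 down changed order between libraries. A tag count at the 5' end does not scale with gene length as a count of fragments along the gene does, but PCR copies of a molecule may be counted more than once. In bulk RNA, fewer cells that express a gene and less RNA per cell cannot be told apart.

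The decapping enzyme genes, DCP1 and DCP2, are described by library. DCP1 had 161.7 and 141.9 CPM with TAP, 137.1 and 151.7 with Cap-Clip, 92.8 and 102.6 with Decapping Pyrophosphohydrolase, and 16.3 and 86.7 without enzyme (replicates 1 and 2 in each pair of values). The TAP and Cap-Clip libraries overlapped, both Decapping Pyrophosphohydrolase libraries lay below them, and both no-enzyme libraries lay lowest. The value in no-enzyme replicate 2 rests on 7 tags. DCP2, the catalytic subunit, had 39.1 and 35.5 CPM with TAP, 37.0 and 29.9 with Cap-Clip, 11.2 and 10.3 with Decapping Pyrophosphohydrolase, and 13.6 and 0 without enzyme. Here the Decapping Pyrophosphohydrolase libraries fell within the range of the no-enzyme libraries.

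The 3 enhancer genes did not behave alike. EDC1 had 70.4 and 71.5 CPM with TAP, 48.9 and 73.5 with Cap-Clip, 53.7 and 80.2 with Decapping Pyrophosphohydrolase, and 8.15 and 24.8 without enzyme. All enzyme-treated libraries overlapped and stood above both controls. EDC2, a paralog of EDC1, had 62.1 and 57.8 CPM with TAP, 69.4 and 73.5 with Cap-Clip, 43.6 and 40.2 with Decapping Pyrophosphohydrolase, and 8.15 and 37.2 without enzyme. EDC3, which binds Dcp2 and Dhh1, had 105.0 and 84.1 CPM with TAP, 92.2 and 99.1 with Cap-Clip, 37.4 and 33.1 with Decapping Pyrophosphohydrolase, and 19.0 and 24.8 without enzyme. For EDC2 and EDC3 the Decapping Pyrophosphohydrolase libraries lay between the other enzymes and the controls, without overlap. In no-enzyme replicate 2 EDC1 had 2 tags, EDC2 3 and EDC3 2, so the place of the controls is a description for all of them.

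Among the activators, the LSM1 libraries of the 3 enzymes overlapped. LSM1, a subunit particular to the cytoplasmic Lsm ring, had 246.8 and 220.9 CPM with TAP, 195.5 and 227.4 with Cap-Clip, 193.4 and 225.6 with Decapping Pyrophosphohydrolase, and 48.9 and 148.7 without enzyme. PAT1 had 136.7 and 125.3 CPM with TAP, 82.8 and 96.6 with Cap-Clip, 53.1 and 55.8 with Decapping Pyrophosphohydrolase, and 4.07 and 37.2 without enzyme, so that the 4 groups followed each other with no overlap. DHH1 had 126.5 and 121.3 CPM with TAP, 92.2 and 106.9 with Cap-Clip, 39.7 and 49.1 with Decapping Pyrophosphohydrolase, and 28.5 and 24.8 without enzyme. The order was the same, also with no overlap. In no-enzyme replicate 2 PAT1 had 3 tags and DHH1 2, so the place of the controls in this order is a description.

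The exonuclease genes showed the same order for the enzymes. XRN1 had 71.0 and 56.1 CPM with TAP, 51.2 and 39.5 with Cap-Clip, 23.5 and 21.6 with Decapping Pyrophosphohydrolase, and 23.1 and 24.8 without enzyme. RAT1 had 123.0 and 113.9 CPM with TAP, 77.2 and 81.5 with Cap-Clip, 29.1 and 29.3 with Decapping Pyrophosphohydrolase, and 8.15 and 49.6 without enzyme. With Decapping Pyrophosphohydrolase both genes overlapped the control libraries.

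**Figure D1:**
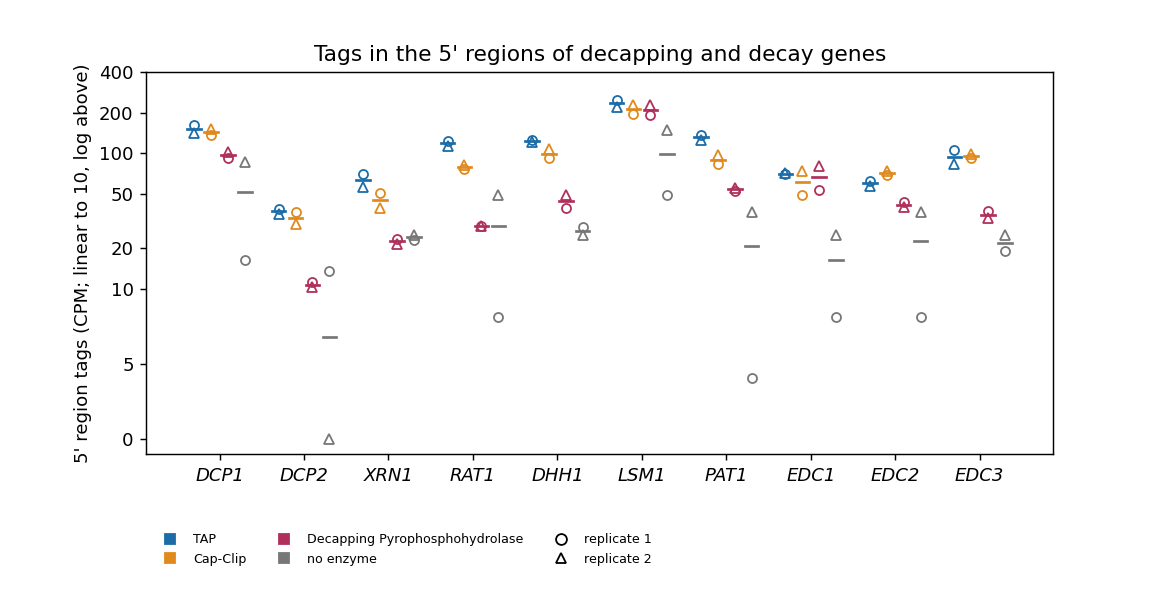
Tags in the 5' region of each gene in CPM (linear up to 10 CPM, log above) for the 8 libraries; circles are replicate 1, triangles replicate 2 and bars the mean of the 2 libraries. For RAT1 the TAP libraries sit at 123.0 and 113.9 CPM and the Decapping Pyrophosphohydrolase libraries at 29.1 and 29.3 CPM, whereas the LSM1 libraries of the 3 enzymes overlap between 193.4 and 246.8 CPM.

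Each enzyme was compared with no enzyme to ask how many of the members gained tags at the 5' end when the cap was opened. With TAP, 9 of 10 members rose, beside 70.7% of all 4964 5' regions tested (edgeR quasi-likelihood test scaled to library totals, with a threshold of 0.05 on the Benjamini-Hochberg adjusted p). PAT1 rose by 3.97 ± 0.74 on the log2 scale (SE of the fit, adjusted p = 2.99e-05), and RAT1 by 3.07 ± 0.66 (adjusted p = 0.000177). LSM1 differed by 1.47 ± 0.71 and was not called (adjusted p = 0.0582). With Cap-Clip 8 of 10 rose, beside 64.4% of all regions, with PAT1 at 3.43 ± 0.75 (adjusted p = 0.000226), and LSM1 (1.33 ± 0.71, adjusted p = 0.0873) and XRN1 (0.93 ± 0.53, adjusted p = 0.105) were not called.

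With Decapping Pyrophosphohydrolase 3 of 10 rose, beside 32.1% of all regions. These were PAT1 (2.70 ± 0.77, adjusted p = 0.00332), EDC1 (2.70 ± 0.67, adjusted p = 0.000899) and EDC2 (1.79 ± 0.66, adjusted p = 0.0201). DCP2 stood at -0.14 ± 0.67 and XRN1 at -0.06 ± 0.55 (adjusted p = 0.854 and 0.927), and no member fell. Whether the enzymes differ in how many members they raise was not tested, and the 3 comparisons share the control libraries.

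These counts rested on the controls. Without no-enzyme replicate 1 the numbers raised were 2 for TAP, 0 for Cap-Clip and 0 for Decapping Pyrophosphohydrolase. Without no-enzyme replicate 2 they were 10, 10 and 6. The sizes moved as well. Without no-enzyme replicate 1 PAT1 stood at 1.82 for TAP, 1.29 for Cap-Clip and 0.55 for Decapping Pyrophosphohydrolase. RAT1 then stood at 1.26 for TAP and DHH1, at 2.32, above both. Without no-enzyme replicate 2 PAT1 stood at 5.00, 4.47 and 3.73 and RAT1 at 3.86. The count with Cap-Clip was 5 without Cap-Clip replicate 2, and that with TAP 6 without TAP replicate 1. With TMM scaling the numbers were 10, 9 and 10, and with DESeq2 10, 10 and 10. DCP2 and XRN1 then rose with Decapping Pyrophosphohydrolase, DCP2 by 2.18 and XRN1 by 2.31 with TMM. Over all 5' regions 4381, 4365 and 4204 were higher with TMM, against 3511, 3199 and 1591 with library totals. Leaving out 1 library moved the numbers over all 5' regions as well, so these shifts are not particular to the members. TMM, which assumes that most features do not change, moved the median of all regions and gene bodies by up to 2.27, and the fold changes above are relative to library totals.

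Gene bodies went the other way. All 10 gene bodies fell with each enzyme, beside 96.3% of all 4317 gene bodies for TAP, 96.3% for Cap-Clip and 96.2% for Decapping Pyrophosphohydrolase. The values ran from -2.31 ± 0.50 for EDC1 with Decapping Pyrophosphohydrolase to -4.78 ± 0.54 for DCP2 with the same enzyme (edgeR, adjusted p = 0.000211 and 7.92e-08). The EDC2 gene body passed the filter only through the no-enzyme libraries, so its fall supports nothing. DCP2 had 298 body tags and 10 tags in the 5' region in no-enzyme replicate 1, and XRN1 had 445 and 17. Without no-enzyme replicate 1, the 3 enzymes in the same order left 5, 4 and 4 gene bodies lower. Counting only positions with at least 2 tags in a library left 4, 4 and 3.

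The same contrast was visible within each gene, as the share of its tags that lay in the 5' region. With TAP that share ran from 66.2% for XRN1 in replicate 2 (Wilson 95% interval 58.3 to 73.3) upward, and it was at least 96.5% in both libraries of EDC2. In no-enzyme replicate 1 it ran from 1.95% for PAT1 (0.665 to 5.57) to 25.9% for LSM1 (19.3 to 33.8). In no-enzyme replicate 2 the members held 37 tags in 5' regions in all, and their shares spanned 0 for DCP2 (0 of 9 tags) to 100% for EDC1 (2 of 2 tags). Intervals cover counting error only.

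With Decapping Pyrophosphohydrolase 7 of 10 members had a lower share in both libraries than in any TAP or Cap-Clip library, which held for 59.5% of all 4028 genes with at least 20 tags in each enzyme-treated library. These were DCP2, XRN1, RAT1, DHH1, PAT1, EDC1 and EDC3. DCP2 had 47.6% and 52.9% with this enzyme, 71.6% and 72.1% with TAP, and 75.8% and 62.5% with Cap-Clip. XRN1 had 47.7% and 41.4%, 70.9% and 66.2%, and 64.4% and 58.5% in the same order. XRN1 has the longest coding region of the members, 4587 nt, and held the most body tags in every enzyme-treated library. LSM1, DCP1 and EDC2 overlapped between enzymes. These shares are described without a test.

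**Figure D2:**
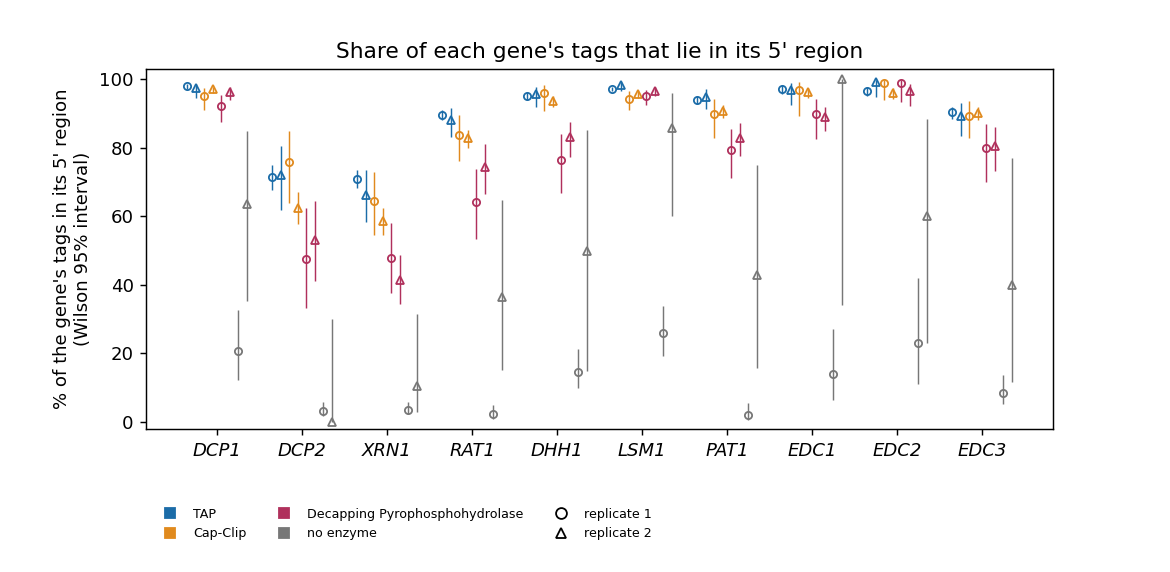
Share of each gene's tags that lies in its 5' region, in percent, for the 8 libraries (circles replicate 1, triangles replicate 2, bars the Wilson 95% interval). Enzyme-treated libraries of LSM1 and EDC2 sit at or above 94.3%, those of XRN1 and DCP2 reach down to 41.4% and 47.6% with Decapping Pyrophosphohydrolase, and no-enzyme replicate 1 stays between 1.95% and 25.9%.

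Cap-Clip and TAP, both acid pyrophosphatases, were compared next over the 6 enzyme-treated libraries with TMM scaling. No member was called, beside 0.0199% of all 5036 5' regions, and the values ran from -0.54 ± 0.18 for XRN1 to 0.30 ± 0.16 for EDC2. At an unadjusted p under 0.05, 3 members were lower with Cap-Clip: XRN1, RAT1 (-0.53 ± 0.15) and PAT1 (-0.48 ± 0.15), with edgeR adjusted p of 0.242, 0.180 and 0.199. DESeq2 called 0. Their calls depended on which libraries entered the shared fit, as did the number called over all 5' regions. With 1 library left out, XRN1 ran from -0.76 to -0.16, RAT1 from -0.60 to -0.45 and PAT1 from -0.51 to -0.46. No member gene body and no start site of a member was called between these enzymes, beside 0% of all 3867 gene bodies and 0.00718% of all 27858 positions. At an unadjusted p under 0.05 there was 1 gene body (LSM1, 0.73 ± 0.27), and DESeq2 called 0 of the gene bodies and 0 of the sites. Calls of single sites also depended on the libraries in the shared fit, for the members as over all positions.

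Decapping Pyrophosphohydrolase gave fewer tags than TAP at most of the genes. 6 of 10 members were lower and 0 higher, beside 40.3% lower and 12.8% higher of all 5' regions (edgeR, TMM scaling). The median over the 10 members was -0.96 and that over all regions -0.36. RAT1 was lowest at -1.62 ± 0.17 (adjusted p = 6.24e-08), followed by DCP2 at -1.41 ± 0.23 (adjusted p = 2.64e-05) and XRN1 at -1.13 ± 0.20 (adjusted p = 5.93e-05). DHH1 stood at -1.06 ± 0.16, EDC3 at -1.05 ± 0.17 and PAT1 at -0.87 ± 0.16, with adjusted p of 1.49e-05, 1.97e-05 and 8.1e-05. DCP1 was not called (-0.24 ± 0.15, edgeR adjusted p = 0.208), and whether it differs from DCP2 in this was not tested.

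The other members not called were EDC2 at -0.12 ± 0.17, LSM1 at 0.24 ± 0.16 and EDC1 at 0.36 ± 0.18 (edgeR, adjusted p = 0.558, 0.208 and 0.106). Scaling to library totals moved the median of all regions and gene bodies by -0.42 against TMM. LSM1 and EDC1 then turned to -0.16 and -0.06, DCP1 and EDC2 became lower as well (8 members lower), and of all called 5' regions 6.65% were higher, against 24.1% with TMM. Without Decapping Pyrophosphohydrolase replicate 1, EDC1 was called higher, at 0.55 (edgeR, adjusted p = 0.0026), and with positions of at least 2 tags LSM1 was called higher, at 0.53 (edgeR, adjusted p = 0.0275). The 6 calls stayed with every alternative tried apart from a region of 200 nt upstream, which leaves out the starts of XRN1 and DHH1. XRN1 was then not tested and DHH1 stood at 0.51 (adjusted p = 0.166).

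Against Cap-Clip the same enzyme gave 6 lower members and 0 higher, beside 31.7% lower and 10.1% higher of all 5' regions. DCP2 (-1.21 ± 0.24), EDC3 (-1.11 ± 0.17), RAT1 (-1.09 ± 0.17), DHH1 (-0.81 ± 0.17), XRN1 (-0.59 ± 0.21) and EDC2 (-0.43 ± 0.17) were lower, with edgeR adjusted p of 0.000404, 2.51e-05, 3.77e-05, 0.000657, 0.0316 and 0.047. EDC2 lost its call in 8 alternatives and XRN1 in 5, among them DESeq2 and a fit with all 8 libraries. PAT1, at -0.38 ± 0.16, and EDC1, at 0.45 ± 0.19, were not called (edgeR, adjusted p = 0.0667 and 0.0601). DCP1, at -0.22 ± 0.16, and LSM1, at 0.33 ± 0.16, were not called either (edgeR, adjusted p = 0.281 and 0.107). With library totals LSM1 turned to -0.018, and 6.44% of all called 5' regions were higher, against 24.1% with TMM. With a replicate block PAT1 was lower and EDC1 higher, at -0.38 and 0.48 (edgeR, adjusted p = 0.0386 and 0.00917), which makes 7 lower and 1 higher. Both comparisons share the Decapping Pyrophosphohydrolase libraries.

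Tags inside the genes were higher with Decapping Pyrophosphohydrolase for 5 of the 9 gene bodies tested against TAP, beside 39.4% of all 3867 gene bodies. EDC1 had 2.05 and 2.29 CPM with TAP and 6.15 and 10.1 CPM with Decapping Pyrophosphohydrolase, and it passed the filter only through the latter libraries, so that its call supports nothing. DHH1 rose by 1.23 ± 0.29, DCP1 by 1.08 ± 0.42, PAT1 by 0.99 ± 0.27 and LSM1 by 0.82 ± 0.31 (edgeR, adjusted p = 0.00135, 0.0353, 0.00362 and 0.032). The gene bodies of XRN1, RAT1, DCP2 and EDC3 were not called, although the 5' regions of all 4 were lower, and that of EDC2 had too few tags to test. Against Cap-Clip 3 gene bodies were higher (EDC1, DHH1 and PAT1), beside 25.6% of all. These body calls rest on few tags: against TAP DESeq2 called 1, library totals left 2, a fit with all 8 libraries 3, the fit without TAP replicate 1 called 1 and that without Decapping Pyrophosphohydrolase replicate 1 called 3. With positions of at least 2 tags 0 were called.

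**Figure D3:**
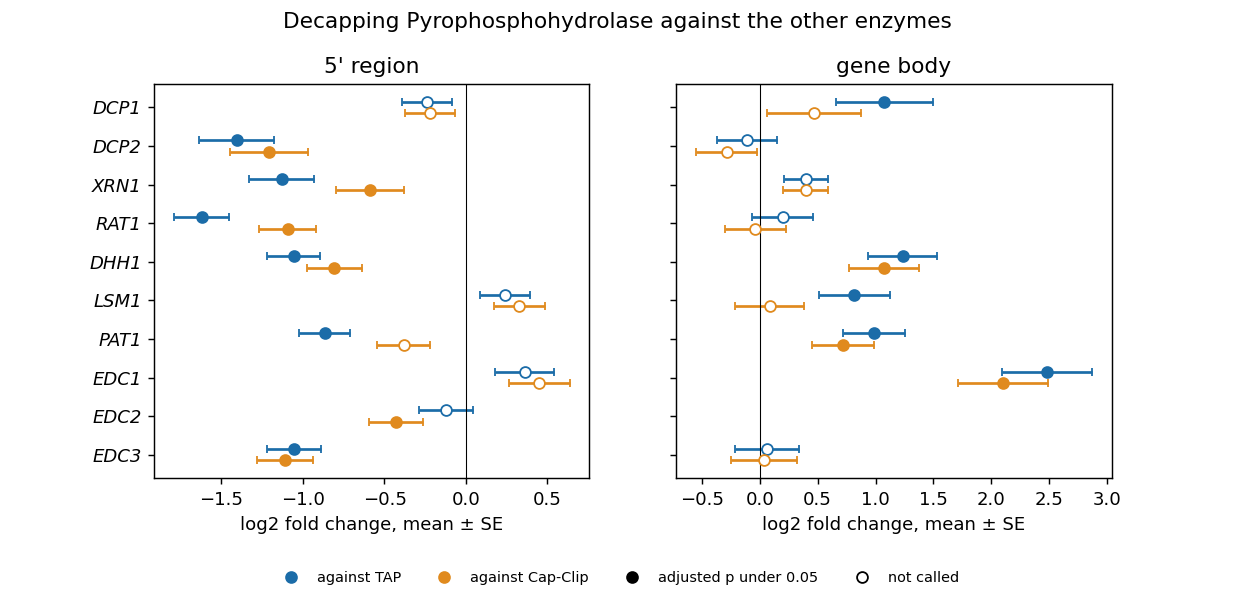
Log2 fold change of Decapping Pyrophosphohydrolase against TAP (blue) and against Cap-Clip (orange), with TMM scaling, for 5' regions and gene bodies; bars are the SE of the fit and filled points have an adjusted p under 0.05. RAT1 lies lowest at -1.62 in the 5' region, LSM1 and EDC1 are to the right of 0, and the EDC1 gene body, which passed the filter only through Decapping Pyrophosphohydrolase libraries, lies at 2.48.

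The position of the starts differed widely between the members and little between TAP and Cap-Clip. The strongest site lay 332 nt upstream of the start codon in XRN1, 284 nt in DHH1 and 166 nt in LSM1, and within 75 nt in the other 7 genes, as near as 19 nt in DCP1. The median over all 3438 genes with a mean of at least 20 CPM was 42 nt. In XRN1 the strongest site held 43.0% and 43.9% of the tags of the 5' region with TAP and 41.5% and 40.3% with Cap-Clip. A site 284 nt upstream held 42.1% and 42.5% of DHH1 tags with TAP and 41.9% and 45.3% with Cap-Clip. No other member placed its strongest site, in any TAP or Cap-Clip library, beyond 75 nt apart from LSM1.

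The next strongest DCP1 sites lay at 7 and 17 nt. The strongest RAT1 sites lay at 32, 46 and 58 nt, and the first of these held 25.1% and 23.6% with TAP. LSM1 had sites at 172, 166 and 133 nt, and DHH1 at 288, 284 and 197 nt. The 5' region of DHH1 overlaps the gene YDL159W-A and that of PAT1 overlaps PTC6, both on the opposite strand, and tags were counted by strand.

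The long leaders held no upstream start codon. From their 3 strongest sites XRN1 and DHH1 had 0 ATG triplets ahead of the start codon. Among all 183 genes whose strongest site lay 200 to 400 nt upstream, 67.2% had 0. The one ATG upstream in LSM1 lies at the first base of transcripts from the site at 172 nt, and that in EDC3 at the first base of transcripts from the site at 41 nt, so that transcripts from the strongest sites, at 166 and 33 nt, do not contain them. Both open a frame that is not that of the gene and that stops before it, after 4 and 9 codons.

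With Decapping Pyrophosphohydrolase the strongest site held a smaller share of tags in some of the genes and not in others, described here without a test. The strongest site was set by the mean over all enzyme-treated libraries, most of them TAP or Cap-Clip. That choice favours sites that are high with those enzymes, and the share over all genes was not counted. At the XRN1 site 332 nt upstream the share fell from the values above to 21.4% and 22.7%, and at the DHH1 site 284 nt upstream to 21.1% and 23.98%. In EDC2 the site at 75 nt held 23.4% and 22.8% of tags with TAP, 20.5% and 25.4% with Cap-Clip, and 6.41% and 6.43% with Decapping Pyrophosphohydrolase. The strongest LSM1 site held 38.2% and 36.4% with this enzyme, 40.5% and 43.5% with TAP, and 39.1% and 38.8% with Cap-Clip. The strongest EDC3 site held 40.3% and 40.9%, 43.6% and 35.4%, and 42.7% and 39.0% in the same order, with overlap. PAT1 was lower, at 23.2% and 24.2% beside 35.4% and 29.2% and 30.5% and 31.5%. In EDC1 the share was 29.2% and 26.9% with this enzyme, 23.5% and 28.0% with TAP, and 20.97% and 19.9% with Cap-Clip. DCP1 and RAT1 overlapped between all enzymes, and DCP2 overlapped with Cap-Clip.

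**Figure D4:**
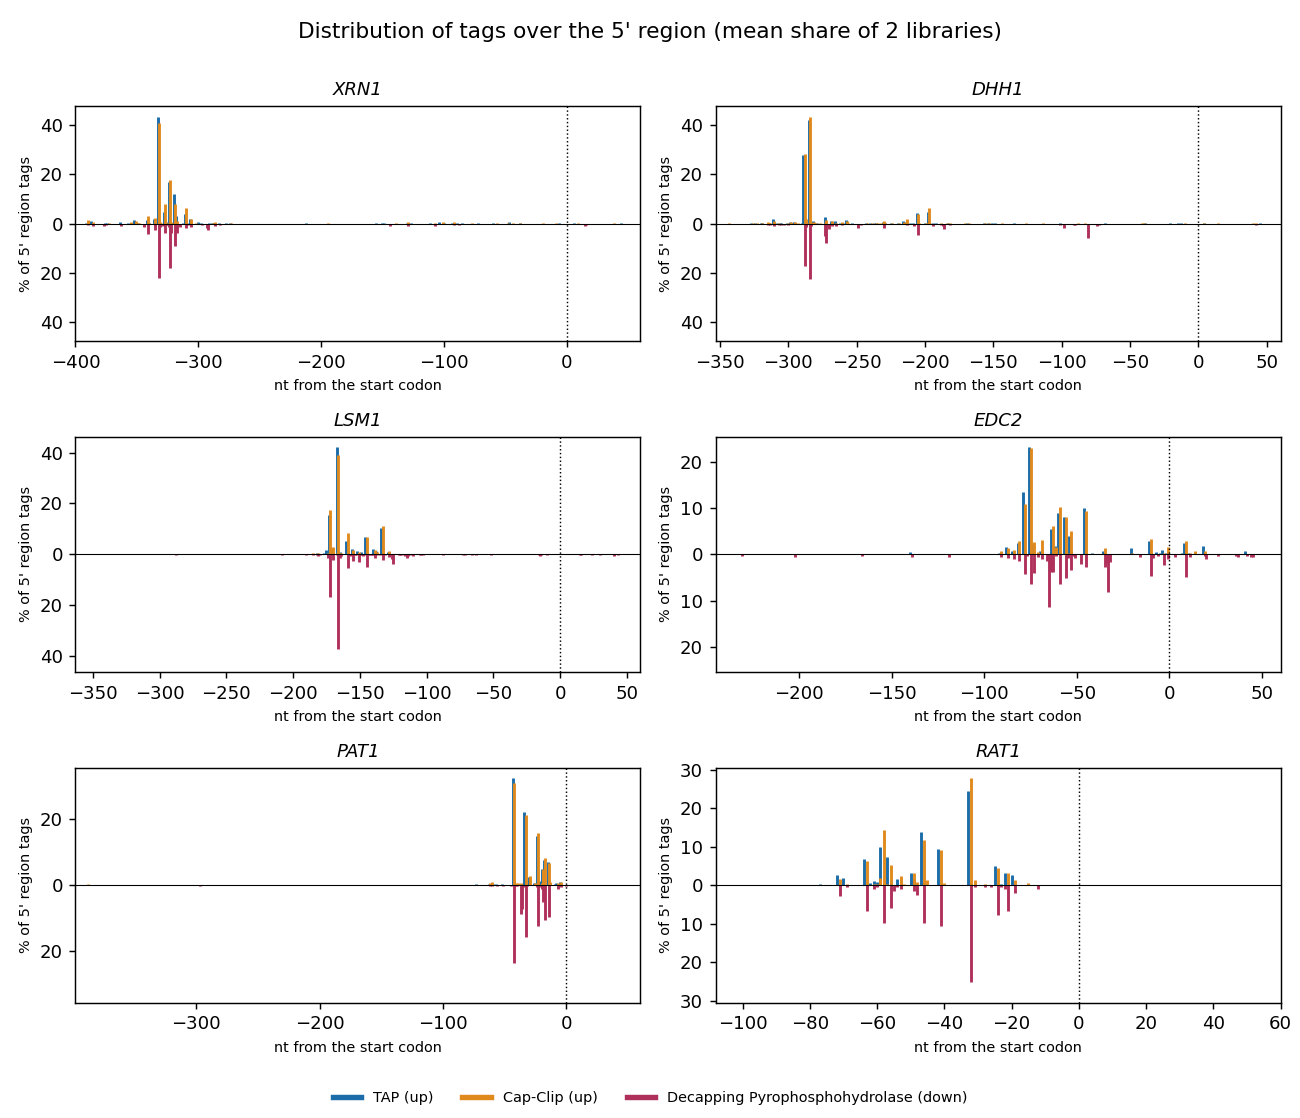
Share of 5' region tags at each position, in percent, against distance from the start codon in nt (0, dotted line), as the mean of 2 libraries for 6 members. TAP (drawn 1 nt to the left) and Cap-Clip point up and Decapping Pyrophosphohydrolase down; the peak of XRN1 at 332 nt upstream and that of EDC2 at 75 nt are shorter downward, and EDC2 has a downward peak at 65 nt with almost no upward partner.

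Single positions were then tested in the same way. Of the 60 member positions that passed the filter, 23 were lower and 5 higher with Decapping Pyrophosphohydrolase than with TAP, beside 14.9% lower and 22.6% higher of all 27858 positions (edgeR, TMM scaling). Against Cap-Clip 19 were lower and the same 5 were higher, beside 11.3% and 20.3%. These counts are shaped by the filter. It asked for about 3.80 CPM in at least 2 libraries, and 4 positions reached that level only in Decapping Pyrophosphohydrolase libraries and 24 only in TAP or Cap-Clip libraries. All 4 of the former were higher, and of the 24 latter 13 were lower than with TAP and 9 lower than with Cap-Clip. Among the other 32 positions 10 were lower and 1 higher against either enzyme. The share over all genes was not counted for positions that passed in this way, so these numbers are a description.

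The number of higher sites rested on single libraries. Against TAP it was 0 without Decapping Pyrophosphohydrolase replicate 2, 11 without replicate 1 of that enzyme, 3 without TAP replicate 1, 10 without TAP replicate 2 and 10 without Cap-Clip replicate 1, and DESeq2 gave 2. Against Cap-Clip it was 0 and 10 without the same 2 Decapping Pyrophosphohydrolase libraries, 2 without Cap-Clip replicate 2, 11 without Cap-Clip replicate 1 and 11 without TAP replicate 2, and DESeq2 gave 2. The count of all called sites against TAP was 16 without Decapping Pyrophosphohydrolase replicate 2, and against Cap-Clip it was 10 without that library and 14 without Cap-Clip replicate 2. Against TAP the strongest site of DHH1 fell by 1.76 ± 0.24 on the log2 scale (edgeR, adjusted p = 6.86e-07). Those of XRN1 and RAT1 fell by 1.94 ± 0.30 and 1.47 ± 0.27 (edgeR, adjusted p = 5.03e-06 and 6.34e-05). All 3 sites reached the level of the filter with each enzyme. They were set as strongest by a mean over mostly TAP and Cap-Clip libraries, which favours sites high with those enzymes.

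The DHH1 site at 197 nt passed the filter only through TAP and Cap-Clip, and its values are a description. It had 82 and 7 tags with TAP, 7 and 58 with Cap-Clip, and 0 and 0 with Decapping Pyrophosphohydrolase. Scaled to library totals, with 3 tags over the group as the floor, the level was 12.5-fold lower than with TAP and 11.7-fold lower than with Cap-Clip. On the TMM scale of the test the same ratios were 8.16-fold and 7.93-fold. They take the tags with TAP and Cap-Clip as counted, so they are not lower bounds. In LSM1 the site at 133 nt had 264 and 41 tags with TAP, 29 and 204 with Cap-Clip, and 10 and 15 with Decapping Pyrophosphohydrolase, and fell by 1.76 ± 0.30 against TAP (edgeR, adjusted p = 2.06e-05). The strongest LSM1 site, 33 nt further upstream, was not called (0.23 ± 0.20, adjusted p = 0.372).

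Over all genes, 89.7% of the 1324 tested positions that begin with T were higher with Decapping Pyrophosphohydrolase than with TAP. So were 97.3% of the 876 that begin with TT. How many of these positions passed the filter only through Decapping Pyrophosphohydrolase was not counted. A position that passed in that way is bound to lie high with this enzyme, so both shares are a description. Of the 5 member sites that were higher, 3 began with T, and these are shown in the sequences above. Each of the 3 passed the filter only through Decapping Pyrophosphohydrolase, as did the LSM1 site at 151 nt, so that their calls support nothing and their tags are given as a description. The LSM1 site at 125 nt had 0 tags in all 4 TAP and Cap-Clip libraries, 11 and 35 with Decapping Pyrophosphohydrolase, and 0 and 2 without enzyme. The 2 tags in no-enzyme replicate 2 are 24.8 CPM, beside 6.15 and 10.1 CPM with Decapping Pyrophosphohydrolase, so its level without enzyme is not resolved. With 3 tags set for TAP and for Cap-Clip, the ratio of Decapping Pyrophosphohydrolase on library totals was 36.3-fold to TAP and 28.4-fold to Cap-Clip. On the TMM scale the ratios were 55.7-fold and 41.9-fold. They take the 11 and 35 tags as counted, at a site that passed only by being high there, so they are not lower bounds. The PAT1 site at 37 nt had 0 and 0 tags with TAP, 1 and 2 with Cap-Clip, and 7 and 20 with Decapping Pyrophosphohydrolase. With 3 tags set for TAP, the ratio to TAP at this site was 21.3-fold on library totals and 32.7-fold on the TMM scale, with the same limit.

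The EDC2 site at 65 nt had 1 and 0 tags with TAP, 0 and 0 with Cap-Clip, and 10 and 14 with Decapping Pyrophosphohydrolase, where it was the strongest site of the gene in replicate 1 and tied for the strongest in replicate 2. The remaining higher site, the strongest of EDC1, begins with A and reached the level of the filter with each enzyme (0.70 ± 0.25 against TAP, edgeR adjusted p = 0.0289). It was not called in 7 alternatives, among them library totals (0.10) and a replicate block (0.57, adjusted p = 0.0502).

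Summed over the 10 genes, T was the first base of 0.946% and 0.557% of 5' region tags with TAP and of 0.892% and 1.08% with Cap-Clip. With Decapping Pyrophosphohydrolase it was the first base of 10.4% and 12.5% (Wilson 95% intervals 8.64 to 12.4 and 11.2 to 13.9), beside 5.34% and 6.16% over all genes. Without enzyme it was 18.3% of 131 tags and 16.2% of 37 tags. The share with A fell from 78.9% and 79.0% with TAP to 70.6% and 66.5%, and that with G stayed between 17.8% and 21.1% in all 6 enzyme-treated libraries.

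The share that began with T was uneven between the members. With Decapping Pyrophosphohydrolase it was 30.8% and 30.7% in EDC2, 26.8% and 26.9% in DHH1, 12.6% and 22.2% in PAT1 and 11.3% and 13.5% in LSM1. It was 1.92% and 2.94% in RAT1, 4.17% and 2.87% in EDC1, 1.49% and 6.09% in EDC3 and 1.2% and 4.48% in DCP1. XRN1 had 11.9% and 9.33%, and DCP2 had 0% and 8.33%. In 8 of 10 members, all but DCP1 and DCP2, both libraries of this enzyme lay above all 4 TAP and Cap-Clip libraries. That held for 69.1% of all 3462 genes with at least 20 tags in the 5' region in each of these libraries. For EDC3 and RAT1 it rests on 1 tag that began with T in replicate 1 of this enzyme, of 67 and 52 tags. In DHH1 these tags were scattered over 22 positions, of which the strongest, at 81 nt, held 15 of 65. In EDC2 24 of 67 lay at 65 nt, and in PAT1 27 of 55 lay at 37 nt.

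**Figure D5:**
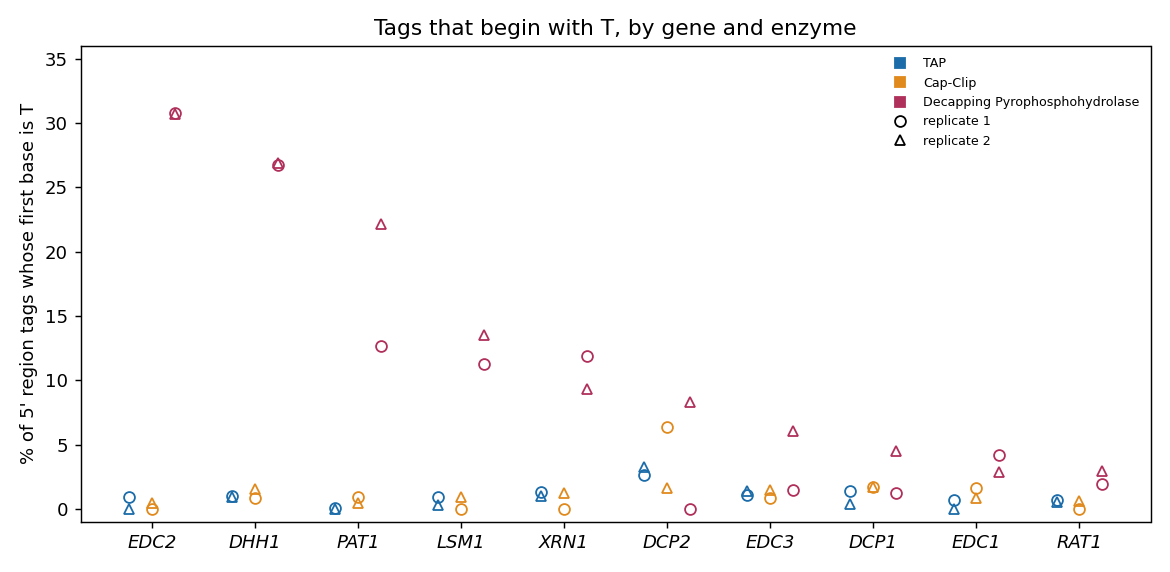
Share of 5' region tags whose first base is T, in percent, by gene for the enzyme-treated libraries (circles replicate 1, triangles replicate 2). Decapping Pyrophosphohydrolase libraries reach 30.8% in EDC2 and 26.9% in DHH1 and 2.94% in RAT1, while TAP and Cap-Clip libraries lie at or below 6.38%.

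The mean leader length, the distance of tags upstream of the start codon averaged over each gene, was tested with limma over 3321 genes with at least 20 tags in each enzyme-treated library. No member was called in any pair, beside 0% of genes between Cap-Clip and TAP, 0.602% between Decapping Pyrophosphohydrolase and TAP, and 0.391% between it and Cap-Clip. At an unadjusted p under 0.05 there were 0, 3 and 2 members. DHH1 had means of 271.8 and 274.8 nt with TAP, 274.7 and 269.7 nt with Cap-Clip and 247.9 and 238.6 nt with Decapping Pyrophosphohydrolase. The difference from TAP was -30.1 ± 3.80 nt (limma, adjusted p = 0.064), and it passed the threshold when genes needed at least 50 tags (adjusted p = 0.0344). EDC2 differed by -6.19 ± 1.21 nt (adjusted p = 0.0986).

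The genes with the most similar pattern across libraries were found by the Euclidean distance of log2(CPM + 1) over the 8 libraries, centred on each gene's mean, from the mean profile of the 10 members. Over 3428 genes with a mean of at least 20 CPM, TOM71 was nearest at 0.157, followed by NNR2, HUT1, CWC21 and RSC9, the last at 0.242, beside a median of 1.54 over those genes. Of the members EDC3 was nearest to their own mean, at 0.760, and DCP2 farthest, at 3.67. The distance counts each library alike, also no-enzyme replicate 2, the smallest. DCP2 had 0 tags in that library and the other members between 2 and 12. How far the distance of DCP2 rests on it was not tested.

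The other genes of mRNA decay were read as 46 genes in 6 lists, all of which passed the filter for 5' regions. Against no enzyme, TAP raised 38 of them, Cap-Clip 37 and Decapping Pyrophosphohydrolase 16, beside 70.7%, 64.4% and 32.1% of all regions, and no list gene fell. Without no-enzyme replicate 1 these numbers were 9, 6 and 0, and with TMM scaling Decapping Pyrophosphohydrolase raised 40. None was called between Cap-Clip and TAP. Between Decapping Pyrophosphohydrolase and TAP 22 were lower and 6 higher, beside 40.3% and 12.8% of all regions, with a median of -0.38 beside -0.36 over all regions. The number higher was 3 with library totals, 3 with DESeq2, 3 without Decapping Pyrophosphohydrolase replicate 1 and 0 in a fit with all 8 libraries, and CDC36, CAF40 and RRP42 among the 6 were not called with library totals. All 3 genes of nonsense-mediated decay were lower, with UPF3, NAM7 and NMD2 at -0.92, -1.24 and -1.40. Of 16 exosome and Ski genes 10 were lower and 2 higher, and SKI2, the helicase of the Ski complex, stood at -2.34 ± 0.26 (edgeR, adjusted p = 1.7e-07).

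The partners of LSM1 in the Lsm1-7 ring did not move together. LSM7 was higher, at 1.88 ± 0.16 (edgeR, adjusted p = 3.0e-09), with 151.4 CPM with TAP and 424.1 CPM with Decapping Pyrophosphohydrolase, and LSM2 was higher at 0.95 ± 0.24 but stood at 0.14 and was not called without Decapping Pyrophosphohydrolase replicate 1. LSM3 was lower at -0.87 ± 0.18, and LSM4, LSM5 and LSM6 were not called. Among 11 deadenylation genes 5 were lower and 2 higher. PAN2, the catalytic subunit of the Pan2-Pan3 nuclease, was lowest at -3.39 ± 0.33, with 29.3 CPM with TAP and 2.26 CPM with Decapping Pyrophosphohydrolase. RAI1, the partner of Rat1, was lower at -0.79 ± 0.17, as RAT1 itself was, and was not called without TAP replicate 1 (-0.57, edgeR adjusted p = 0.076).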

How the data were processed

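The authors deposited a single table of raw counts, in which each row is a genome position and strand and each of 8 columns a library; it had 0 other value columns. Reads were aligned with Novoalign to R64 (sacCer3), per the submitters' processing notes. Whether tags with equal random barcodes were collapsed is not given in the sources used here. Columns were matched to groups by name. Positions are 1-based, as the pyrimidine-purine step held 84.9% of tags at this offset and between 3.29% and 16.9% at 1 or 2 nt to either side.

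Tags were summed over 5' regions and gene bodies of 6002 genes. The members and lists were chosen with earlier results of these data known. edgeR 4.0.16 (R 4.3.3) tested all features or positions together, 2-sided, with its filter on low counts. Enzymes were compared over 6 libraries with TMM, and with no enzyme over 8 libraries scaled to library totals. Library sizes were total tags. Leader lengths were tested with limma 3.58.1. The edgeR and limma steps were tested on data with known answers. All members were named; other genes were the 3 most abundant of each list or genes called between enzymes.

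Depth limits the controls most: 1 tag in no-enzyme replicate 2 is worth more than 10 CPM. Replicate numbers were checked for pairing by the correlation of replicate differences between groups over 5011 regions, which lay between 0.0419 and 0.201. The study's design describes 2 biological replicates that were each divided into the 4 aliquots, and the fits had no replicate term. Alternatives were other scaling, DESeq2 1.42.0, no filter, 200 nt upstream, positions with at least 2 tags, at least 50 tags for leaders, all 8 libraries, a replicate block, and leaving out each library.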

Additional observations from a re-analysis of the deposited data

How the results depend on the processing

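Values are log2 fold changes or numbers of members called. The 6 calls against TAP kept direction and threshold under every alternative apart from the 200 nt region, where XRN1 was not tested. With 200 nt DHH1 stood at -1.55, -1.48 and -1.43 against no enzyme (TAP, Cap-Clip and Decapping Pyrophosphohydrolase), at 0.11 for Cap-Clip against TAP, and at 0.51 and 0.40 for Decapping Pyrophosphohydrolase against TAP and Cap-Clip; its starts at 284 and 288 nt lie outside that region. Decapping Pyrophosphohydrolase against no enzyme called 10 members with TMM, 10 with DESeq2 and 7 with positions of at least 2 tags, and DCP2 turned to 2.18, 1.95 and, with 200 nt, 0.58. XRN1 turned to 2.31 with TMM, 1.94 with DESeq2, 1.49 with at least 2 tags and 0.030 with a replicate block. With positions of at least 2 tags DCP1 turned to 0.045 for Cap-Clip against TAP, and to 0.051 and 0.0067 for Decapping Pyrophosphohydrolase against TAP and Cap-Clip, and EDC2 turned to 0.042 against TAP. Library totals turned LSM1 to -0.16 and EDC1 to -0.059 against TAP and LSM1 to -0.018 against Cap-Clip. Gene bodies with at least 2 tags per position gave 4, 4 and 3 calls against no enzyme. Against TAP the gene bodies called were 2 with library totals, 1 with DESeq2, 0 with at least 2 tags and 3 with all 8 libraries, and against Cap-Clip 1, 0 and 0 with the first 3 of these. Start sites called were 43 with library totals and 15 with DESeq2 against TAP, and 10 with DESeq2 against Cap-Clip. Leader lengths with at least 50 tags gave 1 call against TAP and 1 against Cap-Clip, both DHH1. The cause of these changes was not tested.

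With 1 library left out, members called ran from 2 to 10 for TAP, 0 to 10 for Cap-Clip and 0 to 6 for Decapping Pyrophosphohydrolase against no enzyme, and gene bodies from 5 to 10, 4 to 10 and 4 to 10. Between enzymes, members ran from 0 to 3 for Cap-Clip against TAP, 6 to 7 for Decapping Pyrophosphohydrolase against TAP and 4 to 8 against Cap-Clip. Gene bodies of the last 2 comparisons ran from 1 to 5 and stood at 2. Start sites ran from 0 to 1, 16 to 39 and 10 to 29 over the 3 enzyme pairs. For Decapping Pyrophosphohydrolase against no enzyme, DCP2 ran from -0.35 to 8.40, the latter against a control at 0 and no measure of size, RAT1 from -0.76 to 1.84 and XRN1 from -0.15 to 0.0039. For Cap-Clip against TAP, DCP1 ran from -0.061 to 0.019, DCP2 from -0.37 to 0.16 and EDC1 from -0.36 to 0.0076. The numbers called over all 5' regions moved as well with 1 library left out, so these ranges are not particular to the members. An arm left with 1 library is taken to vary like the other groups.

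With a replicate block Decapping Pyrophosphohydrolase called 6 members against TAP and 8 against Cap-Clip, and 30 and 27 start sites. Over all 5' regions, Decapping Pyrophosphohydrolase against no enzyme called 1676, 4215 with TMM and 4125 with DESeq2. Against TAP it called 2671, 1695 with at least 2 tags and 1586 with all 8 libraries. Against Cap-Clip it called 2105, 1325 with DESeq2, 1160 with at least 2 tags and 939 with all 8 libraries. Cap-Clip against TAP called 1, 42 without a filter and 13 with a replicate block. Depth limits the controls most, since a count of 0 in no-enzyme replicate 2 allows 37.2 CPM.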
